A study of Mus musculus with 18 samples.

Results

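The synaptonemal complex and HORMA genes are a set of 9 meiotic genes: Sycp1, Sycp2, Sycp3, Syce1, Syce2, Syce3, Tex12, Hormad1 and Hormad2. They were chosen by the measured FPKM of Sycp3, which was higher in oocytes without Lsm14b, and the others were named with it as genes of the same structure. Of the 27874 genes in the expression table, 8 of these 9 have a row, and Syce3 entered only the sequence searches. The genotype difference of Sycp3 is the reason for the choice, so each KO against WT value of these genes within a stage is a description without a p-value. Counts of calls in these contrasts are given, and nothing is read from them. The genotype difference in the change from GV to MII was tested, except for Sycp3. The study sequenced RNA from 18 libraries of 15 mouse oocytes each. They form 6 groups of 3 replicates, wild type (WT) and Lsm14b-/- (KO), each collected as germinal vesicle (GV) oocytes, in metaphase I (MI), or 14 h after the ovulatory hormone hCG, which the labels denote as MII. The labels give no strain or age, and do not state that each KO oocyte had completed meiosis I by that time. The LSM14B protein binds mRNA in cytoplasmic granules, and the series title places the study in maternal mRNA storage and clearance.

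The synaptonemal complex is a protein zipper that holds homologous chromosomes together in meiotic prophase. SYCP2 and SYCP3 form the chromosome axes, SYCP1 spans the space between them as the transverse filament, and SYCE1, SYCE2, SYCE3 and TEX12 build the central element, in which SYCE2 and TEX12 assemble into fibres. HORMAD1 and HORMAD2 bind axes that are not synapsed and monitor break formation and pairing. In females this prophase takes place before birth, so fully grown GV oocytes have long passed it, and transcripts of these genes measured there belong to the pool of maternal RNA.

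The steps of the FPKM values gave a depth of 14227763 to 17183681 reads per library, and between 7352 and 9795 genes reached 1 FPKM. Lsm14b itself lay between 2.04 and 11.2 FPKM in the 9 WT libraries and between 0 and 0.234 FPKM (0 to 10 reads) in the 9 KO libraries. Markers of oocytes were all present, with 12 genes summing to 9923 to 28849 FPKM. Of 15 markers of cumulus and granulosa cells, 10 stayed under 1 FPKM in every library, and the list summed to 5.38 to 12.5 FPKM. That sum was 5.38 to 9.25 FPKM in WT GV and 9.97 to 12.5 FPKM in KO GV, and its part in the results at GV was not tested. Markers of blood summed to at most 0.413 FPKM. KO GV replicates 2 and 3 stood apart from their group: over the genes tested, their log2(FPKM + 1) values deviated from the group mean with an SD of 0.522 and 0.476, against 0.261 in replicate 1 and 0.185 to 0.327 in the other groups.

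Sycp3 and Hormad1 were the members higher in KO without overlap between the genotypes at 2 or more stages. Tex12 and Sycp1 were those lower by the same measure. At a single stage, 11.2% to 25.8% of all genes tested were higher in KO without overlap, and 13.3% to 24.8% lower. The share at 2 or more stages was not counted. This sorting uses contrasts that were part of the choice, so nothing is read from it. The promoters of these 4 genes are shown. Each is the RefSeq window (GRCm38.p6, 5′ to 3′ on the gene's strand) from 250 bases before to 50 bases after the transcription start. Capitals mark 2 motifs searched on both strands: CACGTG, the E-box that MAX-containing dimers bind, and GGCGGGA, an E2F-type motif; a repressor complex that carries MGA, MAX and E2F6 is known to keep many meiotic genes silent in somatic cells.
Sycp3 (chr10:88459337-88459636, plus strand): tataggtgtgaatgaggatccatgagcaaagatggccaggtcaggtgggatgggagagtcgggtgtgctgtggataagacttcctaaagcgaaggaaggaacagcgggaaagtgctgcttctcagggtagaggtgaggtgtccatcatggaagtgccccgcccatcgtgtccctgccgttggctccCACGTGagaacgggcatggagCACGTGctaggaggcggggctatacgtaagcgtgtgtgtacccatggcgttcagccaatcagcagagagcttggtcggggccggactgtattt
Hormad1 (chr3:95559427-95559726, plus strand): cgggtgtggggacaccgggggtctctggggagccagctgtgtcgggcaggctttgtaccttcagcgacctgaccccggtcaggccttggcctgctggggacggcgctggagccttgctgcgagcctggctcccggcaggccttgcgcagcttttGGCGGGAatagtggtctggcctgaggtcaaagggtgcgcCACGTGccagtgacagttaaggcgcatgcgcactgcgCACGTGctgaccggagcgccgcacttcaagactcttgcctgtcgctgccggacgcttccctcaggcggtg
Tex12 (chr9:50561219-50561518, minus strand): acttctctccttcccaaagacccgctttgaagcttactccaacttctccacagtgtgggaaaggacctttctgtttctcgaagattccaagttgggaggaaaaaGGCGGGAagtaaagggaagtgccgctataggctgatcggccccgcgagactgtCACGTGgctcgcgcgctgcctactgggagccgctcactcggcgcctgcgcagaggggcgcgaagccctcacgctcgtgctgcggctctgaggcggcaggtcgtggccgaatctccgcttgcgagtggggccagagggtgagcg
Sycp1 (chr3:102936051-102936350, minus strand): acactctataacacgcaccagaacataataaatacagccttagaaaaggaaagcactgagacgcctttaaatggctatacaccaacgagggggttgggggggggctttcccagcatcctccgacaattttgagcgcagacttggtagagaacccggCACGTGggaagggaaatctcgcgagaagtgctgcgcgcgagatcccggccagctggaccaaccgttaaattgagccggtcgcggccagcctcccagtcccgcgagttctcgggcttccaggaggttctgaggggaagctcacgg
The Sycp3 window holds CACGTG at 64 and at 43 bases before the start, and the Hormad1 window at 57 and at 20. Tex12 has it once at 93 bases and Sycp1 once at 94 bases before the start. In all, 5 of the 9 members carry CACGTG in a window, Syce2 at 88 bases before 1 of its annotated starts being the other one, and 4 do not. Among all 32851 windows of the table, 7.15% held at least 1 CACGTG and 0.594% at least 2. Counted by gene, 2187 of 27025 genes had a window with at least 1 and 184 with at least 2. GGCGGGA was found for 3 members, Hormad1, Tex12 and Syce2, and in 11.3% of all windows, or for 3445 of the 27025 genes. The motif stands in windows of members that were higher in KO and of members that were lower, and it says nothing here about binding.

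Abundance per length, in FPKM (reads scaled to exon length and to library depth, as the authors deposited it), differed widely between the members. Averaged over the 18 libraries, Syce2 was the most abundant with 117.8 FPKM, followed by Sycp2 with 26.2, Tex12 with 21.7, Sycp3 with 6.87, Sycp1 with 4.30, Hormad2 with 1.82, Hormad1 with 1.60 and Syce1 with 0.536 FPKM. The low end rests on few reads: Hormad1 had 10 to 104 and Syce1 0 to 32 reads in a library. Sycp3 had 17 to 61 reads in a WT library and 116 to 562 in a KO library. Syce1 reached 1 FPKM in only 2 libraries and was left out of the tests, for which 3 libraries had to reach 1 FPKM. This left 7 tested members among 10320 tested genes.

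**Figure D1:**
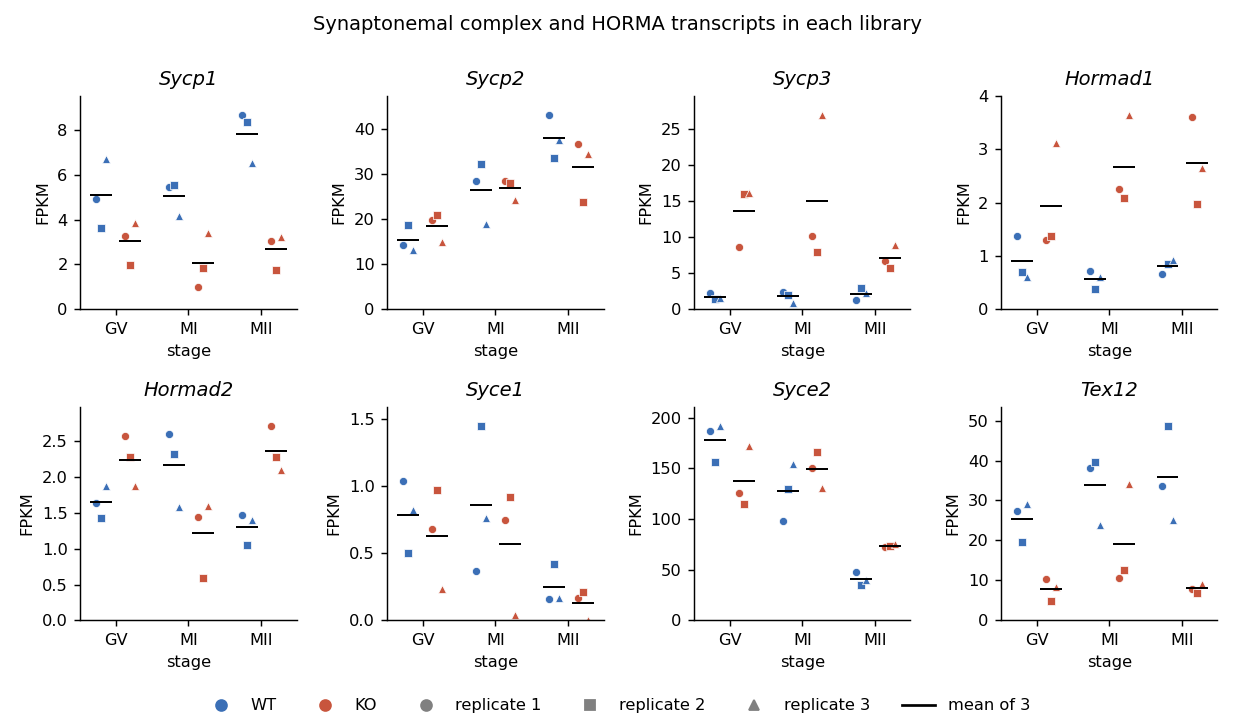
FPKM (vertical axes, linear, each from 0) of the 8 members in each library, by stage (horizontal axis) and genotype (colour); symbols are replicates and bars the mean of 3. Sycp3 lies between 5.67 and 26.9 FPKM in the KO libraries and at most at 2.93 FPKM in the WT libraries, while Syce2 falls towards MII in both genotypes.

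Sycp3, the axis protein whose transcript led to the choice of these genes, lies on mouse chromosome 10 (GRCm38, chr10:88459569-88473236, plus strand). In WT it measured 2.19, 1.35 and 1.56 FPKM in the 3 GV libraries, 2.44, 1.98 and 0.878 FPKM at MI and 1.22, 2.93 and 2.24 FPKM at MII. In KO it measured 8.58, 16.0 and 16.1 FPKM at GV, 10.1, 7.92 and 26.9 FPKM at MI and 6.68, 5.67 and 8.95 FPKM at MII. Every KO library was above every WT library, also across stages, and 1 of them, KO MI replicate 3, stood far above the other two of its group.
The means were 1.70 ± 0.435 against 13.5 ± 4.30 FPKM at GV (SD, n = 3 per group), 1.77 ± 0.802 against 14.99 ± 10.4 at MI and 2.13 ± 0.862 against 7.10 ± 1.68 at MII. KO was thus 7.98, 8.49 and 3.33 times WT. On the scale of log2(FPKM + 1), where differences between low values are compressed, they were 2.39, 2.39 and 1.39 with an SE of 0.37 each. Without KO GV replicate 2 the difference at GV was 2.26, and without replicate 3 it was 2.25. Without KO MI replicate 3 the difference at MI was 1.89. Of all genes tested, 3.94% were higher in KO without overlap at all 3 stages, and Sycp3 was the 1 member among them. Its higher level in KO was the reason for the choice, so nothing is read from this.

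The exons of Sycp3 overlap those of Chpt1, a gene for an enzyme of phosphatidylcholine synthesis that runs on the opposite strand: 660 of the 1264 exon bases of Sycp3 (52.2%) are also exon of Chpt1. How reads in these bases were assigned, and whether the libraries keep strand, is not given in the sources used here. Chpt1 lay between 0.0440 and 0.713 FPKM (6 to 97 reads) in all libraries, below the FPKM of Sycp3 in each. FPKM divides by exon length, 8324 bases for Chpt1, and so does not bound its reads in the shared bases. Summed over 3 libraries, Chpt1 had 55, 122 and 154 reads at GV, MI and MII in WT, and Sycp3 98, 107 and 133. In KO, Chpt1 had 91, 155 and 195 reads, and Sycp3 756, 945 and 439. The share of Chpt1 reads in the Sycp3 values was not tested. No other member shares exon bases with another annotated gene. The last 100 bases of the annotated Sycp3 transcript hold a cytoplasmic polyadenylation element, a sequence through which stored oocyte mRNAs can gain poly(A). The search took TTTTAT or TTTTAAT on the transcript strand, and the match, in capitals, starts 51 bases before the end.
Sycp3 transcript end: ttgtttgtttgTTTTAATagttgttctct
It was the only such match among the 9 members, and 20.7% of 7915 tested genes had 1 or more. The search covered annotated ends only, and the ends used in these oocytes were not measured. Since the cDNA was primed with oligo(dT), the level of each member can reflect the length of its poly(A) tail and not its RNA amount alone. In RNA of pooled oocytes, a smaller number of cells carrying a transcript and less of it per cell cannot be told apart either.

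Hormad1, the HORMA protein of unsynapsed axes (chr3:95559677-95587671, plus strand), was higher in KO at MI and MII, at a low level. WT libraries gave 1.37, 0.705 and 0.610 FPKM at GV, 0.720, 0.381 and 0.604 at MI and 0.652, 0.844 and 0.925 at MII. KO libraries gave 1.30, 1.37 and 3.12 FPKM at GV, 2.25, 2.09 and 3.64 at MI and 3.61, 1.97 and 2.65 at MII. The groups overlapped at GV, where KO replicate 3 alone stood well above WT, and were apart at MI and MII, where KO was 4.68 and 3.40 times WT. The log2 differences were 0.60, 1.20 and 1.03 with an SE of 0.25. Its paralogue Hormad2 (chr11:4345814-4441105, minus strand), which acts with it in the surveillance of synapsis, showed no common direction: 1.43 to 1.88 FPKM in WT against 1.87 to 2.56 in KO at GV, 1.58 to 2.60 against 0.596 to 1.59 at MI, and 1.04 to 1.48 against 2.10 to 2.71 at MII. Only at MII did the 2 groups of Hormad2 not overlap.

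Tex12, a central element protein (chr9:50556819-50561325, minus strand), was lower in KO. WT libraries gave 27.3, 19.5 and 29.1 FPKM at GV, 38.1, 39.7 and 23.9 at MI and 33.6, 48.6 and 25.2 at MII. KO libraries gave 10.4, 4.86 and 8.39 FPKM at GV, 10.5, 12.5 and 34.1 at MI and 7.88, 6.94 and 9.15 at MII. KO was below WT without overlap at GV and MII, by 3.21 and 4.48 times. At MI the groups overlapped through KO replicate 3 alone, the library that was also highest for Sycp3. The log2 differences were -1.60, -0.95 and -1.99 with an SE of 0.37, and -1.45 at MI without that library.

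Sycp1, the transverse filament (chr3:102818499-102936100, minus strand), also sat lower in KO. It measured 4.94, 3.64 and 6.72 FPKM in WT GV, 5.45, 5.54 and 4.19 in WT MI and 8.69, 8.38 and 6.52 in WT MII. In KO the values were 3.25, 2.00 and 3.84 FPKM at GV, 0.990, 1.85 and 3.42 at MI and 3.06, 1.76 and 3.23 at MII. The groups overlapped at GV and were apart at MI and MII, where WT was 2.42 and 2.93 times KO. The log2 differences were -0.59, -1.04 and -1.28 with an SE of 0.29.

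The genes for the 2 proteins that assemble together in the central element, SYCE2 and TEX12, thus did not keep a common ratio. The ratio of Syce2 to Tex12 FPKM was 6.60 to 8.01 in WT GV, 2.56 to 6.44 in WT MI and 0.710 to 1.57 in WT MII. In KO it was 12.1 to 23.7 at GV, 3.83 to 14.3 at MI and 8.21 to 10.6 at MII. The genotypes overlapped at MI only, again through KO replicate 3. Tex12 was more abundant than Sycp3 in 9 of 9 WT libraries, by 11.3 to 27.6 times, whereas in KO the ratio was 0.304 to 1.58. These ratios use the values that chose the genes, and no test was made on them.

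**Figure D2:**
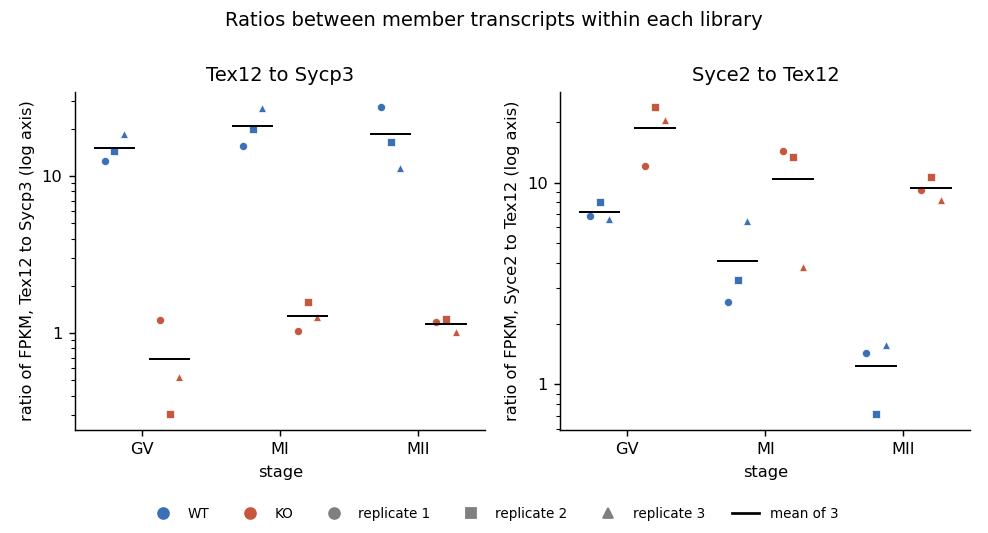
Ratio of the FPKM of Tex12 to Sycp3 (left) and of Syce2 to Tex12 (right) in each library, on log vertical axes, by stage and genotype; symbols are replicates and bars the mean of 3. The ratio of Tex12 to Sycp3 is at least 11.3 in WT and at most 1.58 in KO, and the ratio of Syce2 to Tex12 falls in WT to 0.710 to 1.57 at MII.

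Calls at an adjusted p under 0.05 in limma were counted over the 7 tested members, Sycp3 included. Of these, 1 was called higher and 1 lower in KO at GV, 2 and 1 at MI, and 3 and 2 at MII. Without Sycp3, 1, 2 and 4 of 6 members were called at GV, MI and MII. Of all genes tested, 20.8%, 17.3% and 28.6% were called in these comparisons, with 13.3% higher and 7.49% lower at GV, 3.63% and 13.7% at MI, and 14.9% and 13.8% at MII. The share at GV depends on the fit: 1373 genes were called higher and 773 lower, but 92 and 210 when only the groups compared were fitted. Groups of 3 did not overlap for 1 member higher and 1 lower at GV, beside 17.8% and 13.3% of all genes, for 2 and 1 at MI, beside 11.2% and 24.5%, and for 4 and 2 at MII, beside 25.8% and 24.8%. These contrasts were used in the choice, and nothing is read from the counts. The median log2 difference of the members was 0.26, 0.05 and 0.55, and that of all genes tested 0.17, -0.13 and 0.01.

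**Figure D3:**
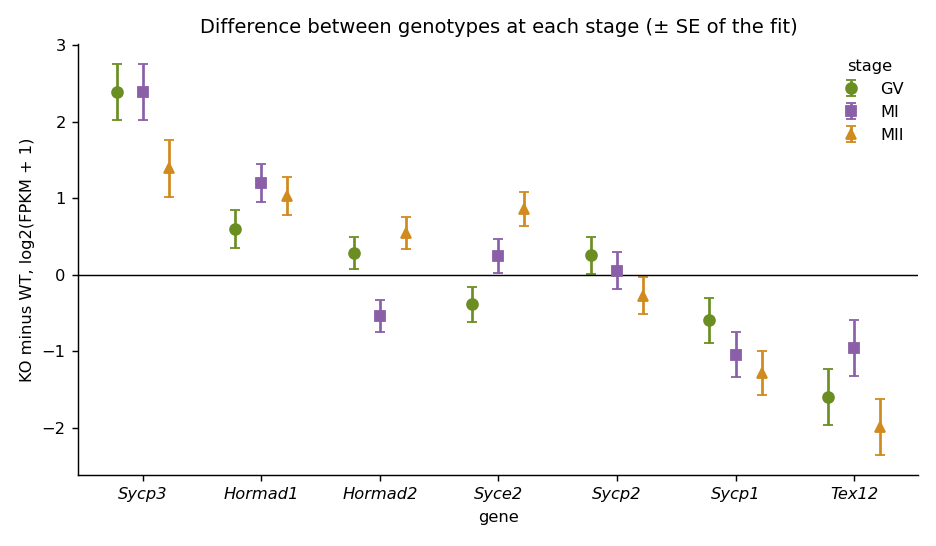
Difference KO minus WT in log2(FPKM + 1) for the 7 tested members at GV, MI and MII; points are fitted differences of 3 against 3 libraries and bars the SE of the fit. Sycp3 stands at 2.39, 2.39 and 1.39, Tex12 at -1.60, -0.95 and -1.99, and Sycp2 within 0.27 of 0 at every stage.

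The changes between stages within a genotype were not part of the choice and were tested with limma, with Benjamini-Hochberg adjustment over all 10320 genes; Sycp3 in KO was left out of these tests. The labels do not say that replicates came from different animals, so p-values measure only the spread between these samples, which may be technical. FPKM is scaled to library depth, so a rise or fall, here and below, is a change in relative level. The amount of RNA per oocyte was not measured. From GV to MII, Sycp2 rose and Syce2 fell in both genotypes, and no other member passed. In WT these were 2 of 7 tested members, beside 57.7% of all genes tested, and in KO 2 of 6, beside 37.2%. The median change of the 7 members was 0.19 in WT and 0.06 in KO, and that of all genes 0.09 and -0.07.

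Syce2, the most abundant member (chr8:84872111-84888221, plus strand), fell most. In WT it measured 187, 156 and 192 FPKM at GV, 97.8, 130 and 154 at MI and 47.9, 34.5 and 39.4 at MII. In KO it measured 126, 115 and 172 FPKM at GV, 150, 167 and 131 at MI and 72.9, 73.7 and 75.1 at MII. All MII libraries lay below all GV libraries of their genotype, and those of KO ended above those of WT. The fall was -2.11 ± 0.22 in WT (log2 change ± SE, limma adjusted p = 3.57e-07), from 178 to 40.6 FPKM, or to 0.228 of the GV mean. In KO it was -0.87 ± 0.22 (adjusted p = 0.00514 in limma), from 138 to 73.9 FPKM, or to 0.537 of the GV mean, and with median-of-ratios scaling between libraries the adjusted p was 0.0665. The genotypes differed in this change by 1.25 ± 0.32 (limma, adjusted p = 0.0288), the 1 of 6 tested members called, beside 5.61% of all genes. That call was lost, with adjusted p between 0.0524 and 0.0776 in limma, without any 1 of WT GV replicates 1 and 3, KO GV replicate 1, WT MII replicates 2 and 3 and KO MII replicates 1 and 2, while the difference stayed between 1.13 and 1.42 over all libraries left out in turn.

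Sycp2, the axis partner of Sycp3 (chr2:178345293-178407685, minus strand), lies on the same chromosome as Lsm14b, 1.62 Mb away. In WT it measured 14.2, 18.7 and 13.2 FPKM at GV, 28.5, 32.1 and 18.8 at MI and 43.1, 33.6 and 37.5 at MII. In KO it measured 19.8, 20.9 and 14.8 FPKM at GV, 28.4, 28.1 and 24.2 at MI and 36.8, 23.9 and 34.3 at MII. Each MII library was above each GV library of its genotype, and the genotypes overlapped at every stage, unlike those of Sycp3. The rise to MII was 1.26 ± 0.24 in WT (log2 change ± SE, limma adjusted p = 0.000267), or 2.48 times the GV mean. In KO it was 0.73 ± 0.24 (limma, adjusted p = 0.0228), or 1.71 times, and this call was lost when only the groups compared were fitted (adjusted p = 0.0985) and without KO GV replicate 3 (0.0764), KO MII replicate 1 (0.101) or KO MII replicate 3 (0.0738). The difference between genotypes in the change, -0.53 ± 0.34, did not pass (limma, adjusted p = 0.316).

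At MI no tested member was called against GV. In WT, limma called 0 of 7 beside 4.82% of all genes, 2 members (Syce2 and Sycp2) had an unadjusted p under 0.05, and voom on reads recovered from the FPKM also called 0. In KO it called 0 of 6 beside 13.0% of all genes, 3 members (Tex12, Sycp2 and Hormad2) had an unadjusted p under 0.05, and voom called 0. The values nearest to the threshold were Tex12 in KO with 1.04 ± 0.37 (limma adjusted p = 0.0695), Sycp2 in WT with 0.73 ± 0.24 (0.0745) and Hormad2 in KO with -0.58 ± 0.21 (0.0794). Tex12 in KO depends on replicate 3: without it the log2 change was 0.54. The log2 change of Sycp3 in WT was 0.00 at MI and 0.19 ± 0.37 at MII (limma adjusted p = 0.997 and 0.676). In KO it was -0.82 ± 0.37 from GV to MII, given without a test, and its GV and MII libraries overlapped.

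**Figure D4:**
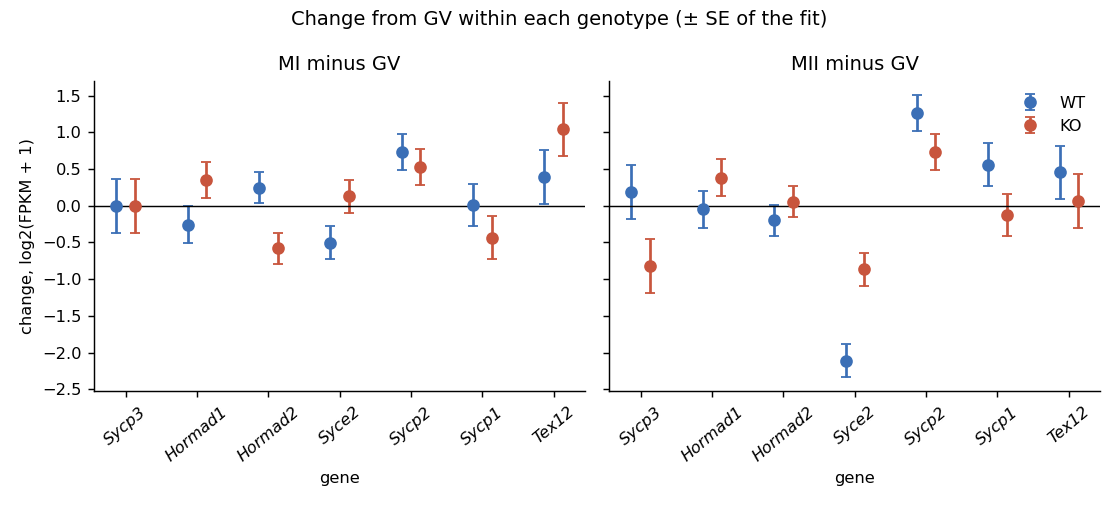
Change from GV to MI (left) and from GV to MII (right) in log2(FPKM + 1) for the 7 tested members in WT and KO; points are fitted changes of 3 against 3 libraries and bars the SE of the fit. Syce2 falls by 2.11 in WT and by 0.87 in KO at MII, and Sycp2 rises by 1.26 and 0.73.

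Syce1, a further central element protein (chr7:140777229-140787852, minus strand), was the scarcest member. WT libraries gave 1.04, 0.501 and 0.818 FPKM at GV, 0.365, 1.44 and 0.761 at MI and 0.162, 0.416 and 0.168 at MII. KO libraries gave 0.679, 0.974 and 0.237 FPKM at GV, 0.749, 0.917 and 0.0415 at MI and 0.168, 0.212 and 0 at MII. The genotypes overlapped at every stage, and with 0 to 10 reads in each MII library a difference there was not detectable at this depth. Read numbers bound counting error only, because PCR copies were not marked by molecular identifiers.

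Other genes of meiotic prophase (46 symbols: cohesin and axis partners, break formation and recombination, meiotic entry and telomere attachment) were read beside the members. Of these, 41 are in the table and 26 were tested. KO against WT, 6 were higher and 1 lower at GV, 3 and 6 at MI, and 5 and 7 at MII, with median log2 differences of 0.02, -0.24 and -0.07, where 20.8%, 17.3% and 28.6% of all genes were called. From GV to MII, 9 rose and 9 fell in WT, beside 57.7% of all genes called, and 4 rose and 5 fell in KO, beside 37.2%.
The lists were chosen with earlier results of these data known, so the p-values below are not independent of that choice. The fit shares 1 spread over the 6 groups, although KO GV replicates 2 and 3 stood apart. Fewer genes were called at GV when only the groups compared were fitted. Among the axis partners, Rad21l, a meiotic cohesin subunit, was higher in KO GV, at 3.92 to 4.78 FPKM against 1.51 to 1.62 in WT (log2 difference 1.06 ± 0.25, limma adjusted p = 0.00862). At MI and MII its differences were 0.30 and 0.18 (limma adjusted p = 0.469 and 0.654). Trip13, the ATPase that removes HORMADs from synapsed axes, was higher in KO at GV by 0.78 ± 0.22 (limma adjusted p = 0.0192) and at MII by 1.26 ± 0.22 (adjusted p = 0.000254). At MI its difference was 0.47 ± 0.22 (limma adjusted p = 0.150). Smc1b, another meiotic cohesin subunit, rose from GV to MII in WT by 0.82 ± 0.23 (limma adjusted p = 0.00591) and had a change of -0.41 ± 0.23 in KO (0.177), and the genotypes differed in this change by -1.23 ± 0.33 (0.0355). KO against WT, Smc1b differed by 0.60, -0.10 and -0.63 at GV, MI and MII (limma adjusted p = 0.0708, 0.814 and 0.0487).
Among recombination genes, Mnd1, whose product assists strand invasion, was 37.1 to 43.5 FPKM in WT GV and 8.72 to 13.5 in WT MII, a log2 change of -1.73 (limma adjusted p = 1.89e-05). It was 73.2 to 86.8 FPKM in KO GV and 33.4 to 59.1 in KO MII, above WT without overlap at both stages. KO against WT, Mnd1 differed by 0.95, 0.25 and 1.85 at GV, MI and MII (limma adjusted p = 0.0153, 0.555 and 3.09e-05). Brca2, which loads recombinases on DNA, rose in WT from 11.2 to 14.1 FPKM at GV to 42.4 to 51.6 at MII (limma adjusted p = 2.26e-06). In KO its values went from 10.4 to 14.9 FPKM at GV to 18.3 to 24.1 at MII (limma adjusted p = 0.0150), and the difference between genotypes in this change had an adjusted p of 0.0501. KO against WT, Brca2 differed by -0.02, -0.55 and -1.10 at GV, MI and MII (limma adjusted p = 0.955, 0.0933 and 0.00108). Hsf2bp, of the same list, differed by -0.20, -0.27 and -0.22 (limma adjusted p = 0.594, 0.521 and 0.575). Terb1, which attaches telomeres to the nuclear envelope, was lower in KO at MI by -0.73 ± 0.20 (limma adjusted p = 0.0193) and at MII by -0.89 ± 0.20 (adjusted p = 0.00282). At GV its difference was 0.12 (limma adjusted p = 0.692). From the same list, Sun1 differed by 0.07, -0.33 and -1.08 at GV, MI and MII (limma adjusted p = 0.887, 0.493 and 0.0101). Ccdc155 differed by -0.40, -1.03 and -0.18 (limma adjusted p = 0.257, 0.00959 and 0.656).

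By the Pearson correlation of log2(FPKM + 1) with Sycp3 over the 18 libraries, the transcripts most like it were Tceal8 (r = 0.919), Hsph1 (0.907), Sf3b6 (0.864), Rsrc2 (0.854) and Stard4 (0.848). These points share libraries, depth and the genotype groups, so the values are a description of likeness only. Tceal8 was 2.25 to 6.97 FPKM in WT GV and 34.9 to 113 in KO GV, 0.561 to 0.977 against 28.3 to 171 at MI, and 0.552 to 3.32 against 27.3 to 33.3 at MII. Its highest library was KO MI replicate 3, as for Sycp3. Hsph1, a cytosolic chaperone, was 8.54 to 20.9 FPKM in WT GV and 50.5 to 139 in KO GV. Among the members, the same correlation with Sycp3 was 0.84 for Hormad1, 0.16 for Syce2, 0.12 for Hormad2, -0.04 for Sycp2, -0.59 for Tex12 and -0.63 for Sycp1.

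**Figure D5:**
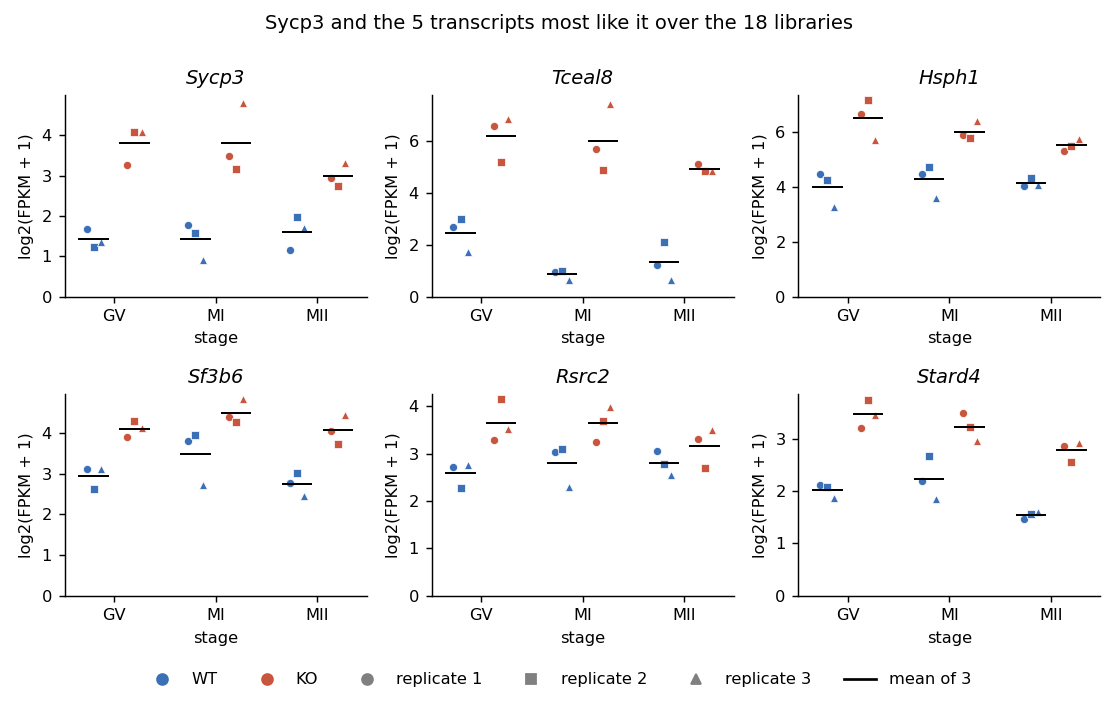
Level in log2(FPKM + 1) (vertical axes, from 0) of Sycp3 and of the 5 transcripts with the highest correlation with it, in each library by stage and genotype; symbols are replicates and bars the mean of 3. Tceal8 lies at 27.3 FPKM or more in every KO library and at 6.97 FPKM or less in every WT library.

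The order of groups differed from member to member. For Sycp3 it was KO MI, KO GV, KO MII, WT MII, WT MI and WT GV from high to low, and KO MII against WT MII was the only neighbouring pair without overlap. For Tex12 the order was WT MII, WT MI, WT GV, KO MI, KO MII and KO GV, with overlap between all neighbours except KO MI and KO MII. For Sycp1 it was WT MII, WT GV, WT MI, KO GV, KO MII and KO MI, and only WT MI and KO GV did not overlap. For Syce2 the first 4 groups, WT GV, KO MI, KO GV and WT MI, overlapped with their neighbours, and KO MII and WT MII followed apart. For Sycp2, Hormad1, Hormad2 and Syce1 all 5 pairs of neighbours overlapped.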

How the data were processed

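RNA was measured in 18 libraries of 15 oocytes; per the labels' protocols, reverse transcription used an oligo(dT) primer and the Smart-seq2 method. The authors deposited FPKM values per gene; mm10 and DESeq2 1.38.3 appear in the submitters' processing notes without a role, and for the aligner, counter, annotation and strand nothing is given in the sources used here. For 92.8% to 93.3% of nonzero values of a library, FPKM times exon length gave whole reads within 0.05 read, from which depth was taken; counting error is all that depth covers. Of the IDs, 27829 matched GENCODE vM21 and 45 did not.

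Values of log2(FPKM + 1) entered limma 3.58.1 (R 4.3.3) with a variance trend and 6 group means, leaving 12 residual degrees of freedom, over the 10320 genes that reached 1 FPKM in 3 or more libraries. P-values are two-sided, Benjamini-Hochberg adjusted within a comparison, with a threshold of 0.05. The fit was tested on simulated data. Named genes are the members, Lsm14b, genes sharing exon bases with a member, the 5 most like Sycp3 with a mean of at least 5 FPKM (predicted genes left out), and up to 3 per meiotic list by mean FPKM. FPKM ranges and stage changes are given for some of these only. Members and lists were chosen with earlier results of these data known. Alternatives were pseudocounts of 0.1 and 5, no filter or a minimum of 5 FPKM, TPM, quantile and median-of-ratios scaling, only the groups compared, a replicate block, voom on recovered reads, and leaving out each library. Python 3.11.15, numpy 2.4.6, pandas 2.3.3 and matplotlib 3.10.9 made tables and figures.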

Additional observations from a re-analysis of the deposited data

Results flagged for a closer look

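The fall of Syce2 from GV to MII differed between the genotypes by the test of the difference itself: KO minus WT was 1.25 on the log2(FPKM + 1) scale (limma, adjusted p = 0.0288), with -2.11 in WT and -0.87 in KO. All 3 KO libraries at MII (72.9 to 75.1 FPKM) were above all 3 WT libraries (34.5 to 47.9 FPKM), and at GV the genotypes overlapped. The call was lost in some of the fits that left out a single library. The labels do not state that each KO oocyte had completed meiosis I by the MII time.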

How the results depend on the processing

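Counts of called members were recomputed under 28 settings and each member's changes under 15 to 22. The counts in this section include Sycp3, also for changes in KO and for KO against WT. Of the 5 called results among those tested (KO against WT and Sycp3 in KO left out), 2, the changes of Sycp2 and Syce2 from GV to MII in WT, kept direction and call in every setting, and 3 lost the call in some: Sycp2 and Syce2 from GV to MII in KO, and the genotype difference of Syce2. None of these reversed, and 5 of the 27 tested results not called were called in some setting. The count of called members from GV to MI in KO, 0, became 1 with median-of-ratios scaling and 2 with quantile normalization. From GV to MII in KO the count of 2 became 1 with median-of-ratios scaling and 1 with only the groups compared. Leaving out 1 library at a time gave 0 to 1 called members from GV to MI in WT (1 without KO GV replicate 2 or 3 or WT MI replicate 3), 0 to 1 in KO (1 without KO MI replicate 1), 1 to 3 from GV to MII in KO (1 without KO MII replicate 1 or 3) and 0 to 1 for the genotype difference. The causes were not tested.

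With the replicate number as a block, the counts of called members were 0 and 2 in WT and 0 and 2 in KO for MI and MII against GV, 2, 3 and 5 for KO against WT, and 1 for the genotype difference, and no count changed. The labels do not say that a number marks a shared origin. Over 45 same-numbered pairs the correlation of deviations from the group means was -0.52 to 0.42, with 15 over 0.1, among them all 3 pairs of KO MI and KO MII (0.24, 0.26 and 0.42), which were not compared with each other; in no pair of groups that was compared were all 3 over 0.1.

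Pseudocounts of 5 and 0.1 gave Sycp3 differences of 1.44 and 2.89 at GV, 1.45 and 2.92 at MI and 0.76 and 1.75 at MII. Median-of-ratios scaling moved the median of all genes from 0.24 to -0.02 for MI against GV in WT, from 0.17 to -0.02 for KO against WT at GV and from -0.13 to 0.01 at MI. Under it the Sycp3 differences were 2.19, 2.50 and 1.40, and genes called higher and lower in KO at GV went from 1373 and 773 to 1190 and 1398. With only the groups compared fitted, genes called higher and lower in KO at GV were 92 and 210. Over all libraries, depth limits Syce1, Hormad1 and Hormad2 most, with at most 121 reads in a library. It also limits Sycp3 in WT, with 17 to 61 reads in a library.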
